A study of Homo sapiens with 6 samples.

Results

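The genes described here are 38 genes of the unfolded protein response and of the ATF4 stress response, found by their symbols among the 58735 genes of the deposited read count table, in which each occurs once. They were divided by their known roles into 19 genes of the endoplasmic reticulum (ER) branch, namely stress sensors, ER chaperones and folding enzymes and genes of ER-associated degradation, and 19 genes of the amino acid response branch, namely ATF4 with its partners, effectors, biosynthetic enzymes and amino acid transporters. RNA-Seq was performed on MCF10A, an established nonmalignant breast epithelial cell line, and 2 groups of 3 libraries were compared to ask what loss of the RasGAP DAB2IP does to the transcriptome. The siControl group (labelled WT) received a nontargeting siRNA pool and the siDAB2IP group (labelled DAB2IP knockdown) an siRNA reagent against DAB2IP, and total RNA was taken 48 hours later. Both groups were grown with horse serum, insulin, epidermal growth factor, cholera toxin and hydrocortisone. The knockdown was transient and used 1 reagent in 1 cell line, so effects of the reagent on other transcripts and effects of DAB2IP loss cannot be told apart, and the labels do not say whether the replicates were separate cultures, so the p-values measure the spread between these libraries.

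When unfolded proteins accumulate in the ER, the sensors PERK, IRE1 and ATF6 raise the expression of chaperones, folding enzymes and degradation factors and slow protein synthesis. PERK shares with other kinases, which respond to amino acid shortage, viral RNA or heme shortage, the phosphorylation of the translation factor eIF2, which favors translation of the ATF4 mRNA. ATF4 then induces genes of amino acid synthesis and uptake, so a lack of amino acids and ER stress converge on shared target genes.

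The libraries held 16353783 to 21916062 counts each, and a count of 3, the limit that a count of 0 allows, corresponded to 0.139 to 0.187 CPM, for counting error only. CPM are counts scaled to a common library total with TMM factors, and SE is the standard error of the log2 fold change of siDAB2IP against siControl. DAB2IP was at 103, 94.2 and 77.4 CPM in siControl replicates 1, 2 and 3 and at 27.5, 25.6 and 22.4 CPM in the siDAB2IP replicates (log2 fold change −1.86, SE 0.13, adjusted p = 9.71e-05 from edgeR). The keratins KRT5, KRT14, KRT6A and KRT17, TP63, CDH1, EGFR and LAMB3, taken as markers of MCF10A, were each expressed at a mean of 59.2 CPM or more in the siControl libraries. Their summed level was 8839.9 to 10941 CPM in siControl and 6159 to 7186 CPM in siDAB2IP libraries, with 4 of the 8 lower and 1 higher past the threshold (7.65% of all genes tested were lower and 6.55% higher), and the part of this in the results was not tested. siDAB2IP replicate 3 stood apart from the other libraries: genes of the mitochondrial genome took 12.8% of its counts, against 9.59% to 10.9% in the other 5, and its correlations with them across genes (log2 CPM) were 0.959 to 0.979, against 0.974 to 0.990 among those 5. Values without it are given beside the results it touches. In bulk RNA, fewer cells of a type and less RNA per cell cannot be told apart.

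The promoters of the members were searched for the sequences that the factors of these pathways are known to bind, and the sites are shown here because the ER stress response element was found in ER branch members. In the 250 bases before the RefSeq transcription start, the ER stress response element, CCAAT and CCACG with 9 bases between them (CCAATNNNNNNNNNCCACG), was found on either strand in 6 of the 36 members with an entry, all of the ER branch, and in 26 of 35114 promoters in all (0.0740%). The members were chosen as known genes of these pathways, so this contrast is a description and not a test. Every promoter entry was counted in the total, but only the first entry of each member was searched. The sites are written 5′ to 3′ on the strand that carries CCAAT, with the matched letters in capitals and coordinates of GRCh38.p14.
HSPA5 (chr9:125241391-125241409, minus strand): CCAATcggcggcctCCACG
HSP90B1, distal (chr12:103930216-103930234, plus strand): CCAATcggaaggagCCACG
HSP90B1, proximal (chr12:103930321-103930339, minus strand): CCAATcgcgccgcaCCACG
CALR (chr19:12938384-12938402, minus strand): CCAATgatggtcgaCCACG
CANX (chr5:179698778-179698796, plus strand): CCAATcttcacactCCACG
CRELD2 (chr22:49918554-49918572, minus strand): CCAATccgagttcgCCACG
XBP1 (chr22:28800603-28800621, minus strand): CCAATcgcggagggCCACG
The element CCAAT-N9-CCACG lay 66 bases before the start of HSPA5 and 151 bases before that of CANX. The core of the C/EBP-ATF response element, TGATGNAA, was found in 3 members (ASNS, CHAC1 and HERPUD1) and in 3.14% of all promoters, and the XBP1 motif TGACGTG in 1 member, HYOU1, and in 1.68% of all promoters. No match overlapped one of another motif. The matches of HSP90B1, CANX, CRELD2, CHAC1 and ASNS lie within these genes as annotated with the counts, where the gene begins further upstream. A match is a description of the sequence, and these 250 bases leave out introns and distant elements. Only exact matches to these sequences were searched, so inexact matches and other elements are left out too. PSPH and SHMT2 had no entry.

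CANX was the 1 called member that held a searched motif. Its 250 bases before the start (chr5:179698679-179698928, plus strand, GRCh38.p14) lie within the CANX gene as annotated in the files, which begins further upstream. They are shown with CCAAT and CCACG of the element in capitals.
CANX promoter: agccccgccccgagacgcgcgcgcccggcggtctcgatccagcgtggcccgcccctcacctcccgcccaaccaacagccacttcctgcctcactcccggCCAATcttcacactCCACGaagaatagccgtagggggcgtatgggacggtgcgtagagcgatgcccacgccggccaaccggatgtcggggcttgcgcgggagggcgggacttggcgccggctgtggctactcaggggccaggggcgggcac

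All 38 members passed the filter on low counts, and each was tested within the fit over all 15430 genes that passed. A gene was called when its Benjamini-Hochberg adjusted p over all genes tested, from the quasi-likelihood test of edgeR, was under 0.05. With knockdown 4 members were called, 10.5% of them against 14.2% of all genes tested. SDF2L1 and ATF6 rose (2 members, with 6.55% of all genes called higher) and MANF and CANX fell (2 members, with 7.65% called lower). All 4 belong to the ER branch. In the amino acid response branch 0 of 19 genes passed, with 5 at an unadjusted p under 0.05 (1 higher and 4 lower). Of all 15430 genes tested, 2238 were higher and 2398 lower at that unadjusted p from edgeR. From DESeq2, 1 of the 19 passed the adjusted threshold (SLC3A2, lower), with 16.6% of all genes called in that fit. In 11 members (28.9%) no siDAB2IP library reached the siControl range, against 35.9% of all genes tested, with 4 higher (17.6% of all genes) and 7 lower (18.3% of all genes). The median log2 fold change was −0.091 over the ER branch and −0.083 over the amino acid response branch, beside 0.0090 over all genes tested.

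Same-numbered libraries of the groups deviated together from their group means, so the number was also used as a block. In that fit 3 members rose and 8 fell, 28.9% of the members against 21% of all genes tested (9.59% higher and 11.4% lower). They were the same 4, and in addition DNAJB9, which rose, and HSP90B1, CALR, SLC7A5, SLC3A2, SHMT2 and TRIB3, which fell. Of the amino acid response branch, 4 of 19 were then called (21.1%), and of the ER branch 7 of 19 (36.8%). Without the block, leaving out siControl replicate 2 left 0 members called (2 higher and 6 lower at an unadjusted p under 0.05). In that fit 4.56% of all genes tested were called, against 14.2% with all libraries, and their share at that unadjusted p was not counted. Leaving out siControl replicate 1, siControl replicate 3 or siDAB2IP replicate 2 left 2, 1 and 2 members called. The shares of all genes tested were 7.48%, 6.62% and 10.9% in these fits (edgeR, with DESeq2 not run on these subsets). Without siDAB2IP replicate 1, 1 member rose and 5 fell, with 9.56% of all genes tested called. Without siDAB2IP replicate 3, 3 rose and 4 fell, with SDF2L1, ATF6, MANF and CANX among them and 16% of all genes tested called. A p that misses the threshold does not show that a gene kept its level, so 95% intervals are given for the genes that did not pass.

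**Figure D1:**
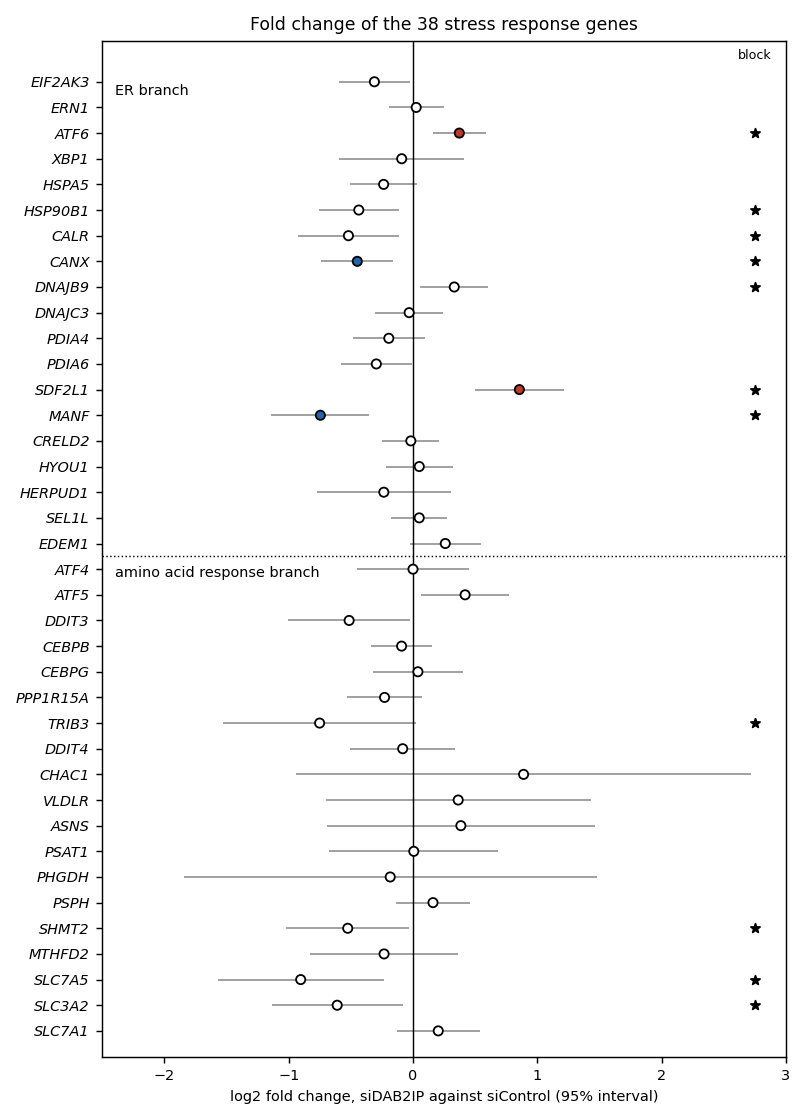
Log2 fold change of each of the 38 members (points) with its 95% interval (lines) from the fit without a block, the ER branch above the dotted line and the amino acid response branch below it. Filled red points rose and filled blue points fell past the threshold, open points did not pass, and stars mark the 11 members called in the blocked fit. The widest intervals belong to CHAC1 and PHGDH.

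Of the sensors, ATF6, a membrane-bound transcription factor that is cleaved and released under ER stress (chromosome 1, 161766294 to 161964070, plus strand), rose. ATF6 was at 153, 159.9 and 147 CPM in siControl replicates 1, 2 and 3 and at 211, 198 and 186 CPM in the siDAB2IP replicates. Every siDAB2IP library lay above every siControl library (log2 fold change 0.37, SE 0.10, adjusted p = 0.0306 from edgeR). The call was kept in 1 of 6 fits on 5 libraries, that without siDAB2IP replicate 3. EIF2AK3, which encodes PERK, had means of 27.6 ± 1.73 and 22.3 ± 2.63 CPM (SD, n = 3) and did not overlap (log2 fold change −0.31, 95% interval −0.59 to −0.027, adjusted p = 0.132 from edgeR). ERN1, which encodes IRE1, lay between 50.2 and 59.3 CPM in the 6 libraries (log2 fold change 0.026, 95% interval −0.19 to 0.25).

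XBP1 encodes the factor whose mRNA IRE1 splices, and gene counts do not tell the spliced from the unspliced form. XBP1 was at 144, 124 and 106 CPM in the siControl replicates and at 162, 112 and 77.00 CPM in the siDAB2IP replicates, so replicate 3 was the lowest and replicate 1 the highest in both groups. The log2 fold change was −0.091 (95% interval −0.59 to 0.41). Within the pairs of equal number it was 0.18, −0.15 and −0.46, with no common sign.

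**Figure D2:**
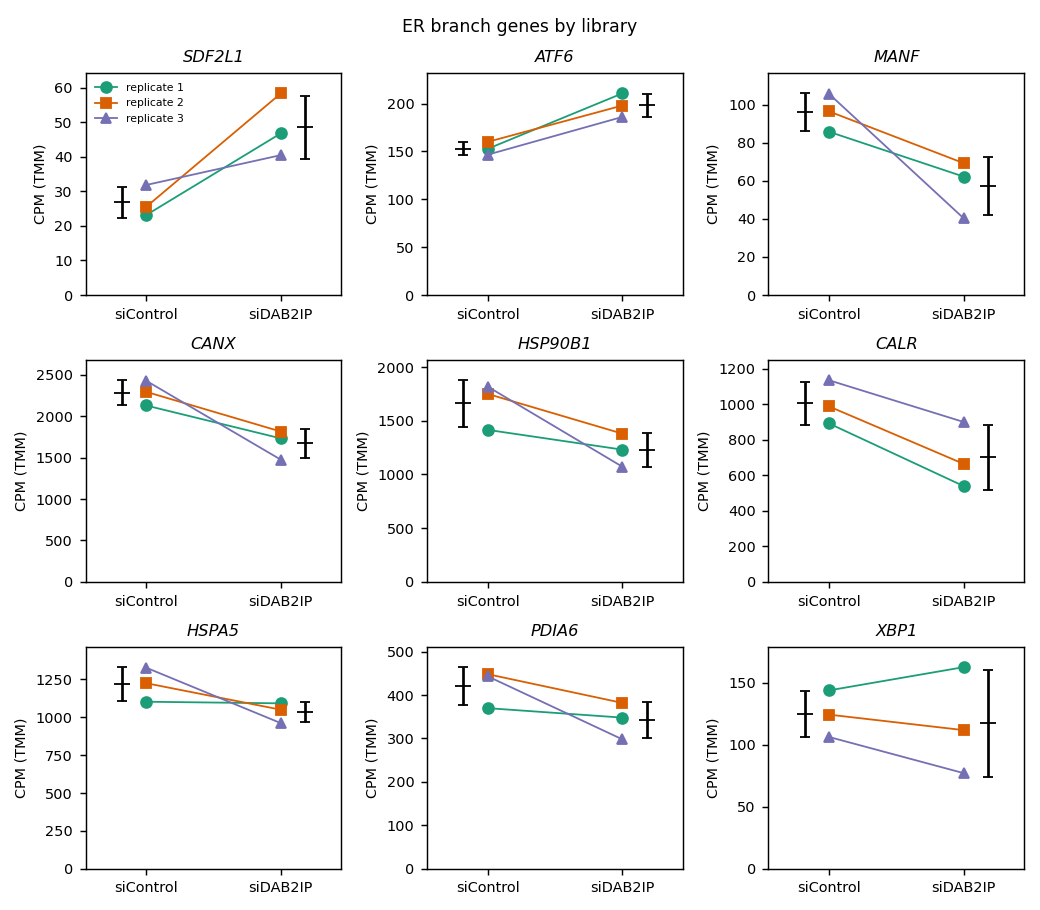
TMM-normalized CPM of 9 ER branch genes in each library (vertical axes from 0), with lines joining the libraries of equal replicate number and black bars giving the mean ± SD of 3 libraries. SDF2L1 and ATF6 are higher and MANF and CANX lower in every siDAB2IP library than in any siControl library. The siDAB2IP values of CALR, PDIA6 and XBP1 overlap those of siControl.

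Among the 12 ER chaperones and folding enzymes, SDF2L1 rose and MANF and CANX fell. Compared per length, CALR, CANX, HSP90B1 and HSPA5 had the highest levels of this role in the siControl libraries, at 367 ± 44.6, 363 ± 23.9, 351 ± 45.9 and 309 ± 28.6 FPKM (SD, n = 3), and neighbors in this order differed by less than 1 SD of either, except HSP90B1 and HSPA5, which differed by less than the larger SD. SDF2L1, at 24.2 ± 4.04 FPKM, and DNAJB9, at 12.3 ± 0.880 FPKM, were far lower. Of the 12, 9 had a negative log2 fold change and the median was −0.22. In all 3 pairs of equal number 7 of the 12 were lower (58.3%), against 28.3% of all genes tested, and 2 were higher (16.7%), against 27.9%.

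SDF2L1, a cofactor of ER J-domain proteins (chromosome 22, 21642261 to 21644298, plus strand), had the largest log2 fold change of the called members. SDF2L1 was at 23.1, 25.5 and 31.8 CPM in the siControl replicates and at 46.8, 58.3 and 40.5 CPM in the siDAB2IP replicates. The lowest siDAB2IP library was above the highest siControl library, and the log2 fold change was 0.86 (SE 0.16, adjusted p = 0.00895 from edgeR). It kept its call in 5 of 6 fits on 5 libraries, and had an adjusted p of 0.0509 (edgeR) without siControl replicate 2. DNAJB9, a J-domain cochaperone of BiP also known as ERdj4, was at 37.9, 32.7 and 35.4 CPM in the siControl replicates and at 49.6, 38.05 and 45.6 CPM in the siDAB2IP replicates. Its values did not overlap either, with a log2 fold change of 0.33 (95% interval 0.058 to 0.61, adjusted p = 0.1001 from edgeR; 0.03995 with the replicate block; 0.03995 to 0.346 over 17 alternatives). DNAJB9 overlaps PNPLA8 and THAP5 on the opposite strand, and whether counting used the strand is not given in the sources used here.

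MANF, a secreted ER protein that supports survival under ER stress (chromosome 3, 51385047 to 51389397, plus strand), fell the most of the ER branch. MANF was at 85.7, 96.4 and 106 CPM in the siControl replicates and at 62.2, 69.2 and 40.2 CPM in the siDAB2IP replicates. All siDAB2IP libraries were below all siControl libraries, and replicate 3 had the highest value of siControl and the lowest of siDAB2IP. The log2 fold change was −0.75 (SE 0.18, adjusted p = 0.0227 from edgeR), with the call lost without siControl replicate 2 or 3 (adjusted p = 0.0689 from edgeR in either fit). CANX, the membrane-bound lectin chaperone calnexin (chromosome 5, 179678628 to 179730925, plus strand), was at 2129, 2295 and 2429 CPM in the siControl replicates and at 1732, 1815 and 1475 CPM in the siDAB2IP replicates. The groups did not overlap (log2 fold change −0.45, SE 0.13, adjusted p = 0.0466 from edgeR), and the call was kept in 1 of 6 fits on 5 libraries, that without siDAB2IP replicate 3.

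CALR, the soluble lectin chaperone calreticulin, was at 891, 987 and 1134 CPM in the siControl replicates and at 539, 664 and 899 CPM in the siDAB2IP replicates. The groups overlapped in replicate 3 of siDAB2IP, which lay above siControl replicate 1, yet each siDAB2IP library was below the siControl library of its number, with log2 differences of −0.73, −0.57 and −0.33. The log2 fold change was −0.52 (adjusted p = 0.0852 from edgeR; 0.009996 with the replicate block; 0.000885 to 0.365 over 17 alternatives). HSP90B1, the ER form of HSP90 known as GRP94, was at 1416, 1750.4 and 1819 CPM in the siControl replicates and at 1231, 1380.3 and 1073 CPM in the siDAB2IP replicates. The groups did not overlap, and the log2 fold change was −0.44 (adjusted p = 0.0725 from edgeR; 0.0430 with the replicate block; 0.0103 to 0.261 over 17 alternatives).

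HSPA5 encodes BiP, the chaperone that holds the sensors inactive and a common measure of ER stress. HSPA5 was at 1103, 1225 and 1328 CPM in the siControl replicates and at 1092, 1050.2 and 961 CPM in the siDAB2IP replicates. The lowest siControl library exceeded the highest siDAB2IP library by a small margin, and the log2 fold change of −0.24 did not pass (95% interval −0.51 to 0.033, adjusted p = 0.222 from edgeR). The disulfide isomerases PDIA4 and PDIA6 had log2 fold changes of −0.19 (95% interval −0.48 to 0.094) and −0.30 (−0.58 to −0.011), and both were lower in all 3 pairs. DNAJC3, an inhibitor of eIF2 kinases and cochaperone, CRELD2, an ER-resident stress-induced protein, and HYOU1, a nucleotide exchange factor of BiP, had log2 fold changes of −0.031, −0.017 and 0.051, with intervals that reached from −0.30 to 0.32. CRELD2 overlaps ALG12 on the opposite strand.

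The 6 genes with an ER stress response element shown above were HSPA5, HSP90B1, CALR, CANX, CRELD2 and XBP1. Their log2 fold changes were between −0.52 and −0.017, all negative, with 7546 of the 15430 genes tested negative too, and 1 of them passed (CANX). The sign turned in 6 of 17 alternatives for CRELD2, scaling by library size only among them, and in 2 of 17 for XBP1, those without siDAB2IP replicate 3 and without both replicates 3. SDF2L1, MANF and ATF6 passed without an exact match to any of the 3 motifs in these 250 bases. Inexact matches and other elements were not searched, so this does not show that they lack such elements. The genes of ER-associated degradation did not pass: HERPUD1, a stress-induced membrane component of the degradation complex, had a log2 fold change of −0.23 (95% interval −0.77 to 0.30), SEL1L, the adaptor of its ubiquitin ligase, one of 0.050 (−0.17 to 0.27), and EDEM1, which directs misfolded glycoproteins to degradation, one of 0.26 (−0.025 to 0.54). EDEM1 was higher in all 3 pairs and passed without siDAB2IP replicate 3 (adjusted p = 0.0328 from edgeR, 0.0328 to 0.592 over 17 alternatives).

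In the amino acid response branch, the group means of ATF4 itself differed by far less than their SDs. ATF4 (chromosome 22, 39519695 to 39522685, plus strand) was at 327, 265 and 203 CPM in siControl replicates 1, 2 and 3 and at 334, 261 and 199.5 CPM in the siDAB2IP replicates. The libraries of equal number nearly coincided, while replicate 1 held 1.61-fold the level of replicate 3 in siControl and 1.67-fold in siDAB2IP. The means were 265 ± 62.01 and 265 ± 67.3 CPM (SD, n = 3), with a 95% interval of the log2 fold change of −0.45 to 0.45. ATF4 is controlled mostly through translation of its mRNA, which was not measured.

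Of its partners, CEBPB, at 257 ± 15.6 and 241 ± 26.1 CPM, and CEBPG, at 45.4 ± 4.96 and 46.6 ± 10.5 CPM (SD, n = 3), had log2 fold changes of −0.092 (95% interval −0.34 to 0.16) and 0.040 (−0.32 to 0.40). DDIT3, which encodes the proapoptotic factor CHOP, was at 6.42, 5.48 and 5.75 CPM in the siControl replicates and at 5.25, 3.32 and 3.77 CPM in the siDAB2IP replicates. Its groups did not overlap and it was low throughout (log2 fold change −0.51, 95% interval −1.0 to −0.026, adjusted p = 0.147 from edgeR). DDIT3 overlaps MARS, which had 219.8 CPM in the siControl libraries, on the opposite strand, so its counts are uncertain. ATF5, a related factor, had the opposite sign (log2 fold change 0.42, 95% interval 0.062 to 0.78, adjusted p = 0.109 from edgeR), again without overlap of the groups, and ATF5 overlaps NUP62 on the opposite strand.

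The effectors and feedback genes did not pass in the fit over all libraries with the low-count filter and no block. TRIB3, a pseudokinase that restrains ATF4 and AKT (chromosome 20, 362835 to 397559, plus strand), was at 79.1, 57.1 and 48.1 CPM in the siControl replicates and at 57.7, 34.8 and 16.9 CPM in the siDAB2IP replicates. It was lower in each pair, with log2 differences of −0.46, −0.71 and −1.5, and siDAB2IP replicate 1 lay within the siControl range. The log2 fold change was −0.75 (SE 0.35, adjusted p = 0.180 from edgeR), and in the blocked fit it was −0.87 (adjusted p = 0.00966 from edgeR; 4.57e-07 to 0.429 over 17 alternatives). TRIB3 also passed without the low-count filter and without siDAB2IP replicate 1. PPP1R15A, which encodes the GADD34 subunit that brings a phosphatase to eIF2, had a log2 fold change of −0.23 (95% interval −0.53 to 0.071) and was lower in all 3 pairs. DDIT4, an inhibitor of mTORC1 also known as REDD1, was abundant at 461 ± 98.4 and 435 ± 96.8 CPM (SD, n = 3; log2 fold change −0.083, 95% interval −0.51 to 0.34).

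CHAC1, which degrades glutathione, was at 5.48, 2.97 and 1.12 CPM in the siControl replicates and at 14.2, 2.603 and 0.812 CPM in the siDAB2IP replicates. The siDAB2IP mean rests on replicate 1: the log2 fold change of 0.89 (95% interval −0.94 to 2.72) became −0.89 without that library. CHAC1 passed in 1 of 17 alternatives, that without a filter on low counts (adjusted p = 0.004999 from edgeR, 0.004999 to 0.884 over all 17). VLDLR, a lipoprotein receptor, was the lowest of the members per length, at 0.278 ± 0.130 FPKM (SD, n = 3), and had a log2 fold change of 0.36 (95% interval −0.70 to 1.43).

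Of the 6 enzymes of serine, one-carbon and asparagine synthesis, SHMT2, which makes one-carbon units from serine in mitochondria (chromosome 12, 57229327 to 57234935, plus strand), was lower in each pair. SHMT2 was at 202, 171 and 145 CPM in the siControl replicates and at 159, 123 and 77.9 CPM in the siDAB2IP replicates. Only siDAB2IP replicate 1 reached the siControl range, and the log2 fold change was −0.53 (SE 0.22, adjusted p = 0.143 from edgeR), or −0.57 in the blocked fit (adjusted p = 0.0101 from edgeR; 0.000349 to 0.384 over 17 alternatives). MTHFD2, the next enzyme of the mitochondrial folate pathway, was at 89.97, 75.95 and 57.8 CPM in the siControl replicates and at 86.9, 67.2 and 36.1 CPM in the siDAB2IP replicates (log2 fold change −0.23, 95% interval −0.83 to 0.36). It was lower in all 3 pairs too, and did not pass with the block (adjusted p = 0.121 from edgeR; 0.121 to 0.876 over 17 alternatives).

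PHGDH, the first enzyme of serine synthesis (chromosome 1, 119648411 to 119744226, plus strand), and CHAC1 had the widest ranges of all members among the siDAB2IP libraries. PHGDH was at 49.5, 25.9 and 12.3 CPM in the siControl replicates and at 58.3, 15.1 and 3.59 CPM in the siDAB2IP replicates. Within the pairs the log2 difference was 0.24, −0.78 and −1.75, positive in replicate 1 and negative in the other two, so no fold change could be resolved (log2 fold change −0.18, 95% interval −1.85 to 1.48). ASNS, asparagine synthetase, showed the same signs, at 6.48, 5.80 and 3.46 CPM in the siControl replicates and 13.1, 4.76 and 2.67 CPM in the siDAB2IP replicates (log2 fold change 0.39, 95% interval −0.69 to 1.46). Without siDAB2IP replicate 1 its log2 fold change was −0.50. ASNS shares its locus with a tested transcript on the same strand, so part of its counts is uncertain. PSAT1, the second enzyme of serine synthesis, had means of 88.1 ± 22.2 and 88.4 ± 45.96 CPM (SD, n = 3; 95% interval of the log2 fold change −0.67 to 0.69), and PSPH, the last, means of 27.9 ± 3.04 and 31.1 ± 3.85 CPM (95% interval −0.13 to 0.46).

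**Figure D3:**
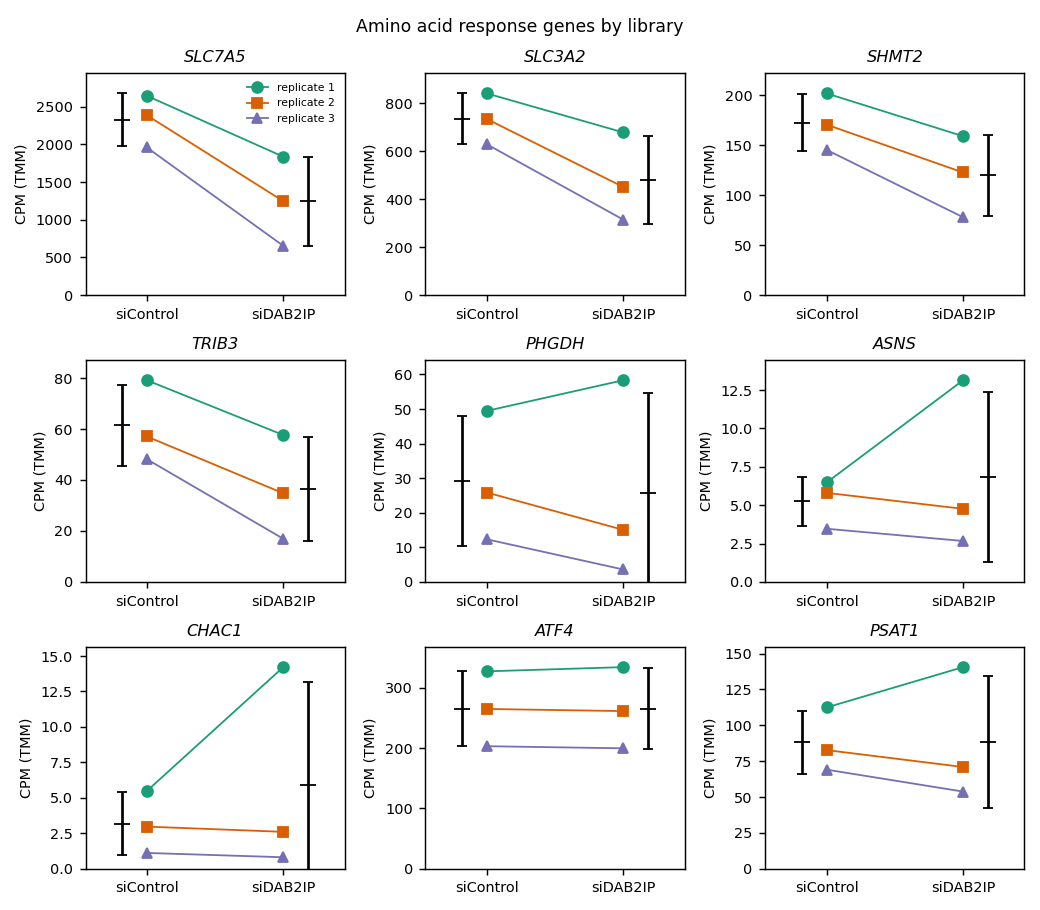
TMM-normalized CPM of 9 amino acid response genes in each library (vertical axes from 0), with lines joining the libraries of equal replicate number and black bars giving the mean ± SD of 3 libraries, cut at 0 for PHGDH and CHAC1. In all 9 genes replicate 1 is the highest and replicate 3 the lowest of its group, and for SLC7A5, SLC3A2, SHMT2 and TRIB3 the siDAB2IP end of all 3 lines is the lower one.

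Of all members, SLC7A5 had the largest difference in CPM between the group means. It encodes LAT1, which takes up leucine and other large neutral amino acids (chromosome 16, 87830023 to 87869488, minus strand), and was the most abundant member per length, at 487 ± 72.4 FPKM (SD, n = 3) in the siControl libraries. SLC7A5 was at 2645, 2386 and 1958 CPM in the siControl replicates and at 1836, 1246 and 654 CPM in the siDAB2IP replicates. Every siDAB2IP library was below every siControl library, and the difference within pairs was −0.53, −0.94 and −1.58 on the log2 scale. The log2 fold change was −0.90 (SE 0.30, 95% interval −1.57 to −0.24, adjusted p = 0.0725 from edgeR). In the blocked fit with the replicate number it was −1.01 and passed (adjusted p = 0.00643 from edgeR; 7.88e-10 to 0.306 over 17 alternatives), and it also passed without siDAB2IP replicate 1 or 3 (adjusted p = 0.0169 and 0.0317 from edgeR).

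SLC3A2 encodes the heavy chain 4F2hc, which forms a heterodimer with LAT1. SLC3A2 was at 841, 734 and 629 CPM in the siControl replicates and at 678, 451 and 315 CPM in the siDAB2IP replicates. Only siDAB2IP replicate 1 reached the siControl range, and the differences within pairs were −0.31, −0.70 and −1.0 on the log2 scale. The log2 fold change was −0.61 (SE 0.24, adjusted p = 0.114 from edgeR), or −0.67 with the replicate block (adjusted p = 0.00948 from edgeR; 4.58e-05 to 0.409 over 17 alternatives). SLC3A2 passed, lower, in 5 of these 17 alternatives, DESeq2 among them. SLC7A1, the transporter CAT1 of arginine and lysine, did not share this sign, at 360.3 ± 25.6 and 415 ± 89.8 CPM (SD, n = 3; log2 fold change 0.20, 95% interval −0.13 to 0.54). The amino acid response branch took 0.559%, 0.490% and 0.418% of all counts in siControl replicates 1, 2 and 3 and 0.481%, 0.350% and 0.244% in the siDAB2IP replicates, shares in which SLC7A5 weighs most. The ER branch took 0.772%, 0.861% and 0.933% and 0.714%, 0.739% and 0.688%.

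**Figure D4:**
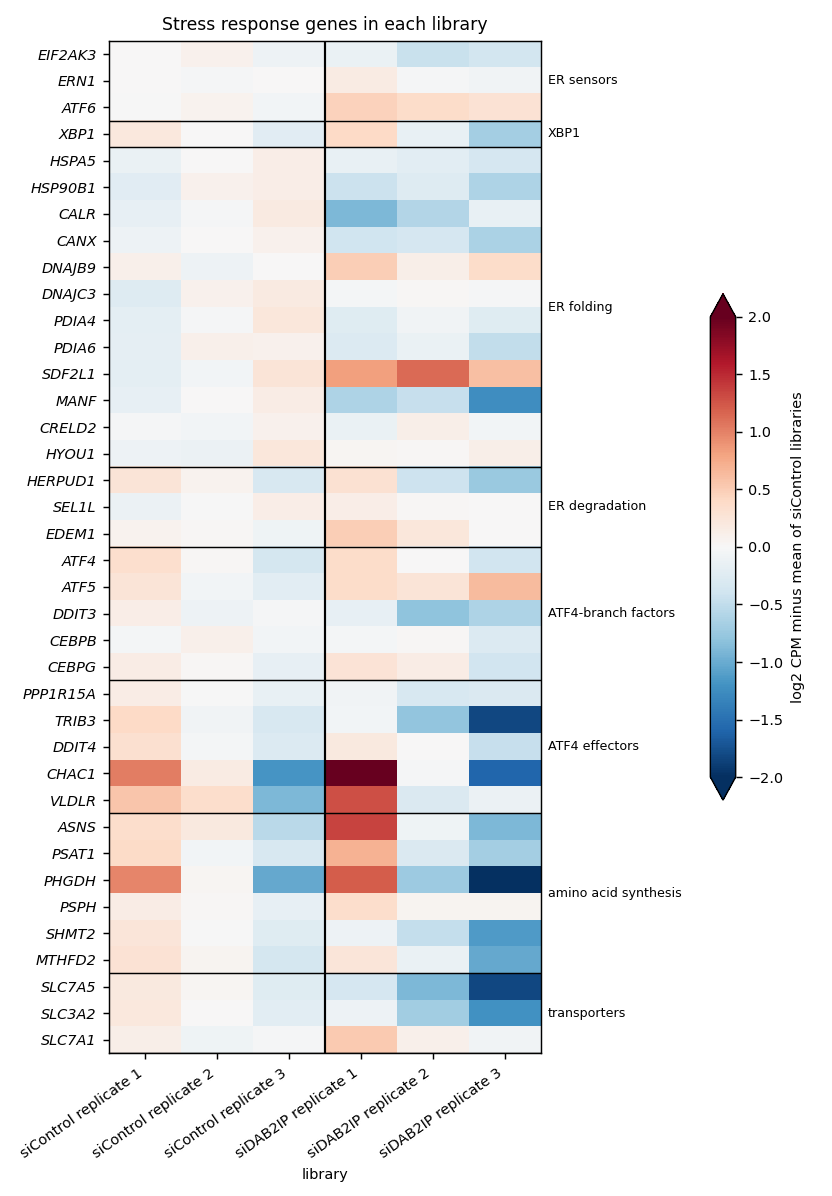
Log2 CPM (prior count 2) of the 38 members in each of the 6 libraries, minus the gene's mean over the siControl libraries; red is higher and blue lower, the scale ends at 2 in either direction with larger differences shown in the end colors, and lines part the roles and the groups. Replicate 1 is the highest and replicate 3 the lowest within both groups for 12 of the 19 amino acid response genes. SLC7A5, SLC3A2, SHMT2 and TRIB3 are among these, yet lie below the siControl mean in siDAB2IP replicate 1. Of the 12 ER folding genes 0 show this order in both groups, and their median rises from siControl replicate 1 to replicate 3.

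The replicates of a group lay further apart in the amino acid response genes than in the median gene, in siControl as well as in siDAB2IP. The fold between the highest and the lowest library of a group (on log2 CPM with a prior count of 2) had a median of 1.39 in siControl and 2.04 in siDAB2IP over the 19 genes of the amino acid response branch, 1.21 and 1.25 over the ER branch, and 1.23 and 1.31 over all genes tested. PHGDH spanned 3.99-fold in siControl and 15.8-fold in siDAB2IP, CHAC1 4.56-fold and 15.5-fold, and ASNS 1.84-fold and 4.77-fold. In both groups, replicate 1 was the highest and replicate 3 the lowest for 12 of these 19 genes (63.2%), for 3 of the 19 ER branch genes (XBP1, HERPUD1 and EDEM1) and for 6.9% of all genes tested. The reverse order was seen in 0 of the 19, in 1 ER branch gene (CALR) and in 5.57% of all genes tested. This pattern was noticed in the data before it was counted. The labels do not say what a replicate number stands for.

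Measured against the mean of the siControl libraries, the median of the amino acid response branch was 0.26, 0.017 and −0.24 on the log2 scale in the siControl replicates and 0.28, −0.13 and −0.62 in the siDAB2IP replicates. The median of siDAB2IP replicate 3 was the lowest of the 6, and those of both replicates 1 nearly coincided. Without siDAB2IP replicate 3, the library with the highest mitochondrial share, the log2 fold changes were −0.60 for SLC7A5, −0.38 for SLC3A2, −0.41 for TRIB3 and −0.29 for SHMT2, all smaller in size than with it, and 0.33 for PHGDH, which turned sign. Of these 5, SLC7A5 then passed (adjusted p = 0.0317 from edgeR, 7.88e-10 to 0.306 over 17 alternatives), and the part of that library's differences in these results was not tested. For the ER chaperones and folding enzymes these medians were −0.16, −0.0046 and 0.14 and −0.20, −0.10 and −0.20, with siControl replicate 1 within the range of the siDAB2IP libraries.

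**Figure D5:**
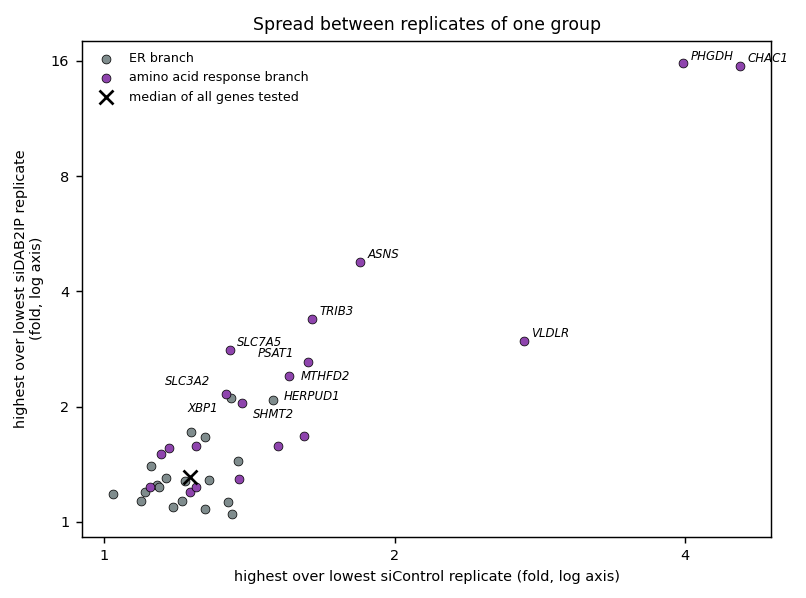
Fold between the highest and lowest replicate within siControl (horizontal, log axis) and within siDAB2IP (vertical, log axis) for the ER branch (grey) and the amino acid response branch (purple), on log2 CPM with a prior count of 2; the cross is the median of all genes tested. PHGDH and CHAC1 lie farthest out, at about 16-fold on the siDAB2IP axis, and most ER branch genes lie near the cross.

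Other genes of these pathways, listed with earlier results of these data known, were set beside the members. Of 12 aminoacyl-tRNA synthetase genes, which charge tRNAs and include ATF4 targets, 0 passed in edgeR or in DESeq2 (1 at an unadjusted p under 0.05 in edgeR, higher). With the replicate block AARS and CARS passed, both higher (2 of 12, with 9.59% of all genes higher in that fit), and 10 had a positive log2 fold change, with a median of 0.13. AARS had a log2 fold change of 0.46 and CARS one of 0.43, the opposite sign of SLC7A5 and SLC3A2. Replicate 1 was the highest and replicate 3 the lowest in both groups for 9 of the 12. Of 25 other amino acid response genes tested, 1 rose and 1 fell (8% called, against 14.2% of all genes tested). That order of replicates in both groups was seen in 15 of the 25 (60%), against 6.9% of all genes tested. GDF15, a secreted stress cytokine, rose from 61.5 ± 9.31 to 245 ± 45.9 CPM (SD, n = 3), by 1.99 on the log2 scale (SE 0.16, adjusted p = 0.000164 from edgeR). KLHL24, a ubiquitin ligase adaptor, fell from 44.3 ± 1.498 to 24.4 ± 0.938 CPM (log2 fold change −0.86, adjusted p = 0.00124 from edgeR). The other eIF2 kinases EIF2AK1, EIF2AK2 and EIF2AK4 and the phosphatase subunit PPP1R15B did not pass in edgeR (0 of 4, also 0 at an unadjusted p under 0.05 and 0 in DESeq2), with log2 fold changes between −0.18 and −0.040.

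Of 18 other ER folding genes 3 rose and 1 fell (22.2% called, against 14.2% of all genes tested). QSOX1, a secretory-pathway oxidase of disulfide bonds, rose most, from 369 ± 13.6 to 656 ± 41.6 CPM (SD, n = 3; log2 fold change 0.83, adjusted p = 0.00171 from edgeR), and FKBP14, a prolyl isomerase, and SIL1, an exchange factor of BiP, had log2 fold changes of 0.44 and 0.32. PDIA3, the isomerase that works with calnexin and calreticulin, fell from 715 ± 72.4 to 515 ± 39.5 CPM (log2 fold change −0.47, adjusted p = 0.0286 from edgeR). Of 25 genes of ER degradation, translocation and export, EDEM2 rose (log2 fold change 0.66), while its relative EDEM3 (−0.68) and KDELR2 (−0.62), a receptor that returns escaped chaperones to the ER, fell (12% called, again against 14.2%). Of 10 other regulators tested, 1 rose (against 6.55% of all genes), WFS1, an ER membrane protein that limits ATF6 (log2 fold change 0.83, adjusted p = 0.0113 from edgeR). These lists had medians of 0.016, 0.092 and 0.012, beside 0.0090 over all genes tested.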

How the data were processed

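RNA-Seq libraries of MCF10A cells, 3 siControl and 3 siDAB2IP, were analyzed, grouped by the labels. The authors deposited counts per gene and library, whole numbers without normalization, and FPKM values, which the authors obtained by dividing counts by gene length and by a scaled library total. The submitters' processing notes name hg38, STAR 2.6.1d, featureCounts 1.5.0-p3, DESeq2 1.20.0 and edgeR 3.24.3. All 58735 genes have the positions and strands of GENCODE 29. The quasi-likelihood test of edgeR 4.0.16 in R 4.3.3 was run on these counts over 15430 genes (filterByExpr by group, TMM, glmQLFit and glmQLFTest). The common biological coefficient of variation was 14.8%. Standard errors and 95% intervals were derived from the F statistic and its degrees of freedom. FPKM served for levels between genes and, with limma 3.58.1, as an alternative. Exact permutation tests of 3 libraries against 3 cannot go below 0.1 and were not used for calls.

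After subtraction of group means, log2 CPM of libraries with equal number correlated across genes at 0.26, 0.15, 0.25 (replicates 1, 2 and 3) and of those with different numbers at −0.28 to 0.021, so libraries of equal number were treated as pairs in an alternative fit with the replicate block. Other alternatives were DESeq2 1.42.0, RLE factors, library size only, other filters, limma on log2(FPKM + 1) and log2(FPKM + 0.1), a threshold of 0.01 and leaving out each library. The members, roles and lists were chosen with earlier results of these data known. Named genes were DAB2IP, all members and the called genes of each list, at most 3 in each direction. Promoters are those of RefSeq on GRCh38.p14. Named processed copies of the members held at most 1.05% of the counts of their gene. The scripts were tested on simulated counts with 200 changed genes.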

Additional observations from a re-analysis of the deposited data

How the results depend on the processing

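The 4 called members kept their signs in each of the 17 alternatives, and DAB2IP stayed lower past the threshold in every fit (−1.99 to −1.79 over the fits that left out a library, −1.90 to −1.86 without a pair). DESeq2 called 5 members lower (4 of the ER branch, 1 of the amino acid response branch), and no filter on low counts called 3 higher and 8 lower (4 lower of the ER branch, 1 higher and 4 lower of the amino acid response branch). The replicate block called 8 lower (4 and 4). Of all genes, DESeq2 called 16.6%, the fit without a filter 9.93% of 29567 genes, and the block 21%. Scaling by library size only and limma on log2(FPKM + 1) each called 1 lower, of the ER branch, with 14.9% and 12.1% of all genes called. The fit of limma on log2(FPKM + 0.1) called 0 members lower, among 659 higher and 758 lower genes in all. At an adjusted p under 0.01, 1 member was higher (SDF2L1) and 0 lower, of 254 and 368 genes. The block changed no call of a member other than the 7 it added.

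Leaving out 1 library gave 264 to 1172 genes higher and 459 to 1352 lower, 0 to 3 members higher and 0 to 5 lower, 0 to 3 and 0 to 3 of the ER branch, and 0 to 4 lower of the amino acid response branch. Leaving out a pair, chosen after seeing the data, gave 66 to 1059 genes higher and 169 to 1304 lower. Of the members 0 to 2 were higher and 0 to 6 lower. Of the ER branch these were 0 to 2 and 0 to 3, and of the amino acid response branch 0 to 3 were lower. By edgeR 0 members were called without pair 1, with 127 genes higher and 266 lower in all (2.51% of those tested). Without pair 2 also 0 members were called, with 235 genes called in all (1.51%). At an unadjusted p under 0.05 from edgeR, 3 members were higher and 11 lower without pair 1, and 3 and 3 without pair 2. The share of all genes at that unadjusted p was not counted in these fits. Signs turned in genes that did not pass. Their log2 fold changes without a library, then without a pair, were −0.051 to 0.073 and −0.063 to 0.077 for ERN1, −0.40 to 0.14 and −0.31 to 0.033 for XBP1, −0.17 to 0.042 and −0.15 to 0.063 for DNAJC3, −0.092 to 0.037 and −0.12 to 0.041 for CRELD2, −0.027 to 0.16 and −0.011 to 0.14 for HYOU1, −0.026 to 0.10 and −0.061 to 0.14 for SEL1L, −0.20 to 0.17 and −0.041 to 0.0084 for ATF4, −0.094 to 0.21 and −0.038 to 0.13 for CEBPG, −0.23 to 0.084 and −0.16 to −0.047 for DDIT4, −0.89 to 1.47 and −0.30 to 1.2 for CHAC1, −0.34 to 0.64 and −0.090 to 0.78 for VLDLR, −0.50 to 0.77 and −0.34 to 0.67 for ASNS, −0.50 to 0.26 and −0.30 to 0.12 for PSAT1, −1.64 to 0.39 and −1.06 to 0.0056 for PHGDH, −0.53 to 0.049 and −0.39 to −0.11 for MTHFD2. CRELD2 also turned to 0.0059 without pair 1. With library size only, CRELD2 was at 0.019 and DNAJC3 at 0.0056. ATF4, at 1.1e-05, turned to −0.0026 with DESeq2, −0.011 without a filter, −0.014 with at least 10 counts in every library, −0.0046 with the block, and −0.0076 and −0.0077 with limma on log2(FPKM + 1) and log2(FPKM + 0.1). PSAT1, at 0.0065, turned to −0.0030 without a filter, −0.0078 with at least 10 counts, −0.082 with the block, and −0.085 and −0.089 with limma. The causes were not tested. Low counts limit CHAC1, VLDLR, DDIT3 and ASNS.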

Other observations

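Chaperones outside the ER were set beside those inside it. Of 12 cytosolic heat shock genes, which answer to HSF1 and not to the ER sensors, 11 had a negative log2 fold change and the median was −0.32, beside 0.0090 over all genes tested, and 1 fell, with 7.65% of all genes tested called lower. DNAJB1, a cochaperone of HSP70, was at 122, 116 and 113 CPM in the siControl replicates and at 79.99, 83.2 and 69.98 CPM in the siDAB2IP replicates (log2 fold change −0.59, SE 0.10, adjusted p = 0.00528 from edgeR). With the replicate block 4 fell, DNAJB1, HSPA1A, DNAJA1 and HSPH1, with 11.4% of all genes called lower in that fit, and HSPA1A has a near-identical copy, HSPA1B, with which the counting could have split its reads. In all 3 pairs of equal number 8 of the 12 were lower (66.7%), against 28.3% of all genes tested. Of 8 mitochondrial chaperones and proteases 0 passed in edgeR, with or without the replicate block, and 0 in DESeq2 (1 at an unadjusted p under 0.05 in edgeR, higher), with a median of −0.071.

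Markers of other cell types were checked in the same libraries. The leukocyte marker CD14 was at 56.8 ± 18.3 and 64.6 ± 14.01 CPM (SD, n = 3) and did not pass the test, PTPRC and LYZ did not pass the filter, and CD3E was at 0 in all libraries. Of the fibroblast markers, DCN was at 201 ± 65.9 and 143 ± 25.8 CPM (SD, n = 3), COL1A1 rose (log2 fold change 0.78), and COL1A2, COL3A1 and LUM did not pass the filter, with a sum over the 6 markers of 163 to 293 CPM in siControl and 146 to 206 CPM in siDAB2IP. Of the endothelial markers 1 of 4 fell, KDR (log2 fold change −0.93), with sums of 23.1 to 33.1 and 14.8 to 16.3 CPM. Of the luminal hormone receptor markers PGR was at 0 in all libraries, ESR1 did not pass the filter, GATA3 did not pass the test and FOXA1 rose (log2 fold change 1.05), with sums of 20.7 to 27.2 and 22.3 to 27.3 CPM. Of all genes tested 6.55% rose and 7.65% fell. The part of these markers in the results above was not tested.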
